A study of Mus musculus with 12 samples.

Results

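The Dickkopf (Dkk), secreted Frizzled-related (Sfrp) and Wif families encode secreted inhibitors of Wnt signalling, and the 10 genes Dkk1, Dkk2, Dkk3, Dkk4, Dkkl1, Sfrp1, Sfrp2, Sfrp4, Frzb and Wif1 were followed here in neonatal mouse dermis. They were chosen by name, with earlier results of these data known, as the probe sets annotated to 1 of these symbols alone. All 10 genes were found, on 17 of 45037 probe sets, and they make up 10 of the 18193 genes measured. The arrays were 12 Affymetrix MG430.2A arrays of C57Bl6/CBA F1 mice in 4 groups of 3, labelled P1 Tail and P1 Back (1 day after birth) and P5 Tail and P5 Back (5 days after birth). The labels name no transgene or treatment, and RNA came from dermis digested to single cells. Tail dermis was freed from the epidermis in EDTA and back dermis in dispase and trypsin, so that site and separating solution cannot be told apart. The study states triplicate mice for P1 and describes no P5 arrays, and if arrays of a group were not separate mice, the p-values measure only the spread between arrays.

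Wnt ligands signal through Frizzled receptors and the co-receptors Lrp5 and Lrp6, which stabilise β-catenin in the receiving cell. Dkk1, Dkk2 and Dkk4 bind Lrp5 and Lrp6 and remove them from the signalling complex, whereas Sfrp proteins, Frzb and Wif1 bind the Wnt ligand itself. Dkk3 and Dkkl1 are more distant relatives whose part in Wnt signalling is less clear. In skin, Wnt signalling is needed for hair follicle (HF) formation, and its secreted inhibitors limit where follicles form.

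The deposited log2 values were centred by probe set on the median of the 12 arrays, so a value of 1 is a level 2-fold above the gene's own median. Levels of different genes cannot be compared, and whether a gene lay above background cannot be read. Differences were tested in limma over all 18193 genes, with Benjamini-Hochberg adjusted p-values and a threshold of 0.05, and only differences past it are called changes here. In a mixed tissue such as dermis, fewer cells of a type and less RNA per cell cannot be told apart.

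The labels of the site were checked before the genes were read. Posterior Hox genes, which mark the tail end of the body, were lower in the arrays labelled tail, with a list mean of 9 genes between -0.91 and -0.77 against 0.70 to 0.92 in the arrays labelled back. Of these 9 genes, 7 at P1 and 6 at P5 passed the test in that direction and none in the other. Adipocyte genes, which belong to the fat layer beneath back skin, had higher values under the tail label at P1, where 8 of 8 measured genes passed the test. Both go against the labels, and the fat genes run opposite to the direction that the study gives for back and tail. The labels were kept as deposited, every direction between sites is one between labels, and differences between P1 and P5 do not depend on them beyond the name of the site. Keratinocyte genes also varied between the dermis arrays, with a list mean of 13 genes from -1.16 in P1 tail replicate 4 to 0.84 in P1 back replicates 5 and 6. The P5 tail replicate 2 array stood apart in spread, with a standard deviation over all probe sets of 0.496 against 0.227 to 0.338 on the other arrays.

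**Figure D1:**
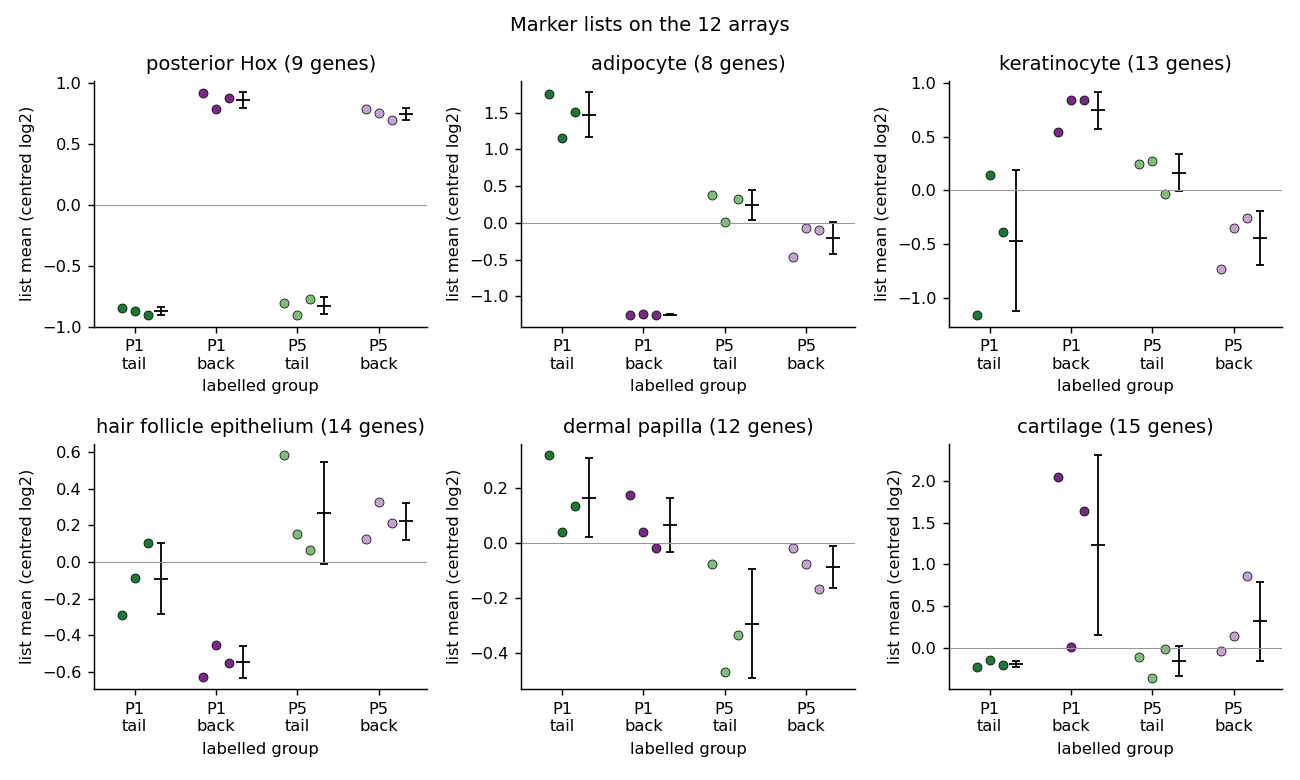
Mean centred log2 value of 6 marker lists (vertical axis, with its own scale in each panel) on each array, by labelled group. Each point is 1 array, and the bars mark the group mean and SD (n = 3). Posterior Hox genes are higher under the back label at both ages, and adipocyte genes lie between 1.15 and 1.75 in the arrays labelled P1 tail.

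Between P1 and P5, the clearest change of the family was a fall of Dkk1 under both labels, by more than 4-fold, while Dkk2 rose under both. Sfrp4 fell, Sfrp1 and Dkk3 rose and Frzb fell with age in the arrays labelled tail. In those arrays 6 of 10 members passed the test, 3 higher and 3 lower at P5, against 5.3% of all genes (3.34% higher and 1.96% lower). In the arrays labelled back 2 of 10 passed, 1 higher and 1 lower, against 4.25% of all genes (2.22% higher and 2.03% lower). Because the members were chosen with earlier results of these data known, these counts are not a test of the family. Sfrp5, an Sfrp gene not among the members, passed in neither age comparison. The median difference over the 10 members was 0.05 under the tail label and -0.12 under the back label, beside 0.04 and 0.01 over all genes, so the members did not share a direction.

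**Figure D2:**
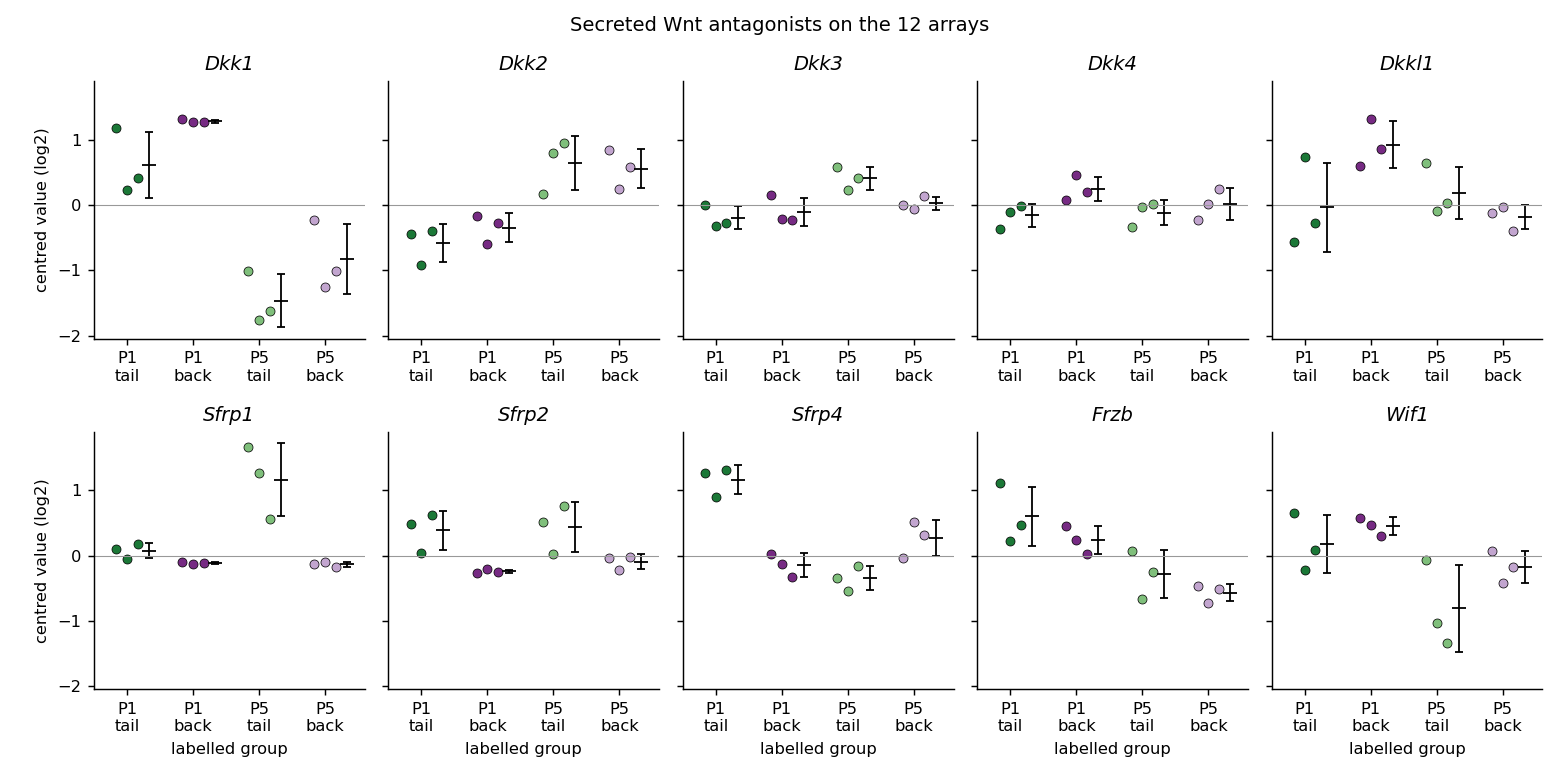
Centred log2 values (vertical axis) of the 10 genes on the 12 arrays, by labelled group. Each point is 1 array, in order of replicate number, and the bars mark the group mean and SD (n = 3). All 6 P1 values of Dkk1 lie above all 6 P5 values, and Sfrp1 is raised in the P5 tail arrays alone.

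Dkk1 is itself a target gene of β-catenin. Its values were 1.18, 0.23 and 0.42 in P1 tail replicates 4, 5 and 6, and 1.31, 1.27 and 1.27 in P1 back replicates 1, 5 and 6. At P5 they were -1.01, -1.76 and -1.62 in tail replicates 2, 3 and 4, and -0.23, -1.26 and -1.01 in back replicates 1, 2 and 3. Every P1 array lay above every P5 array, and the P1 back arrays hardly differed among themselves. Dkk1 fell by 2.12 on the log2 scale in arrays labelled back (4.34-fold, standard error 0.28, limma adjusted p = 0.00109) and the difference in those labelled tail was -2.07 (4.21-fold, standard error 0.28, limma adjusted p = 0.00114). The difference between these 2 falls was 0.04, with a 95% confidence interval from -0.83 to 0.91. Both falls passed the test with any 1 array left out, at -2.42 to -1.90 for back and -2.30 to -1.79 for tail. Without the 3 arrays with high cartilage genes (P1 back replicates 1 and 6 and P5 back replicate 3), the fall under the back label was -2.02 with a limma adjusted p of 0.213, P1 back then being 1 array.

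The 2 probe sets of Dkk1 moved alike. The log2 difference between the ages was -1.98 under both labels on 1 of them, and -2.26 under the back label and -2.17 under the tail label on the other, each past the test over all probe sets. Between sites, Dkk1 was lower under the tail label by -0.68 at P1 and by -0.63 at P5, and neither passed (limma adjusted p = 0.288 and 0.230). Of the alternatives, only array weights called the P1 difference (limma adjusted p = 0.0147). At P1 the 3 arrays labelled tail all lay below the 3 labelled back, which 30.2% of all genes did in 1 direction or the other. In the order of group means, P1 back came before P1 tail, P5 back and P5 tail, and only the step from P1 tail to P5 back, of 1.44, passed (limma adjusted p = 0.0104).

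Dkk2, which can inhibit or weakly activate Wnt signalling depending on its partners, went the other way. Its values were -0.44, -0.92 and -0.40 in P1 tail replicates 4, 5 and 6, and -0.17, -0.60 and -0.28 in P1 back replicates 1, 5 and 6. At P5 they were 0.17, 0.80 and 0.95 in tail replicates 2, 3 and 4, and 0.84, 0.25 and 0.58 in back replicates 1, 2 and 3. All 6 P1 values lay below 0 and all 6 P5 values above it. Dkk2 rose by 1.22 under the tail label (2.34-fold, standard error 0.22, limma adjusted p = 0.00586) and by 0.91 under the back label (1.88-fold, standard error 0.22, limma adjusted p = 0.0343). The rise under the tail label passed with any 1 array left out, from 1.06 to 1.46. The rise under the back label did not pass without P1 back replicate 1, 5 or 6 or P5 back replicate 1 or 3, where the limma adjusted p lay between 0.0628 and 0.148, and it passed only without P5 back replicate 2 (0.0427). Between sites Dkk2 differed by -0.24 at P1 and 0.08 at P5, and in the order of group means, P5 tail, P5 back, P1 back and P1 tail, only the middle step passed.

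The promoters of these genes, which moved in opposite directions with age, are shown as the 250 bases before the transcription start, read 5′ to 3′ on the gene's strand from RefSeq GRCm38.p6. The reference is of the C57BL/6J strain and not of the F1 mice measured. Dkk1 lies on the minus strand at chr19:30545876-30549496 and the stretch shown is chr19:30549497-30549746. Dkk2 lies on the plus strand at chr3:132085266-132180304, with the stretch chr3:132085042-132085291, because the start in the promoter table lies inside the printed span of the gene. Capitals mark a TCF/LEF word, CTTTGAA or CTTTGAT on either strand, and a TATA word, TATAAA on the gene's strand.
Dkk1: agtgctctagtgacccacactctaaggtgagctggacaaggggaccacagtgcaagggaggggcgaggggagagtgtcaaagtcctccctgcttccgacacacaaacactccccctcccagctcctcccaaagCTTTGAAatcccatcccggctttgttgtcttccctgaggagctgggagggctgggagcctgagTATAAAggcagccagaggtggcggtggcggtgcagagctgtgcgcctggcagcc
Dkk2: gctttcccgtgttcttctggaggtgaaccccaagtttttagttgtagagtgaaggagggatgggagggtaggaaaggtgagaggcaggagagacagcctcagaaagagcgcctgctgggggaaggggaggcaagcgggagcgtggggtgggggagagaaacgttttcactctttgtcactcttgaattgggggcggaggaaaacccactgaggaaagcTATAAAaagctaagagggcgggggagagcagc
The Dkk1 stretch holds 1 TCF/LEF word, CTTTGAA, at bases 117 to 111 before the start, and a TATA word at bases 54 to 49, and the words do not overlap. The Dkk2 stretch holds a TATA word at bases 32 to 27 before the start of the promoter table, directly before the first base of the gene's printed span, and no TCF/LEF word. Of 32851 promoter stretches of this length, 7.48% held a TCF/LEF word and 7.59% a TATA word. The promoter table held 6 of the 10 members, and the stretches of Dkkl1, Sfrp2, Frzb and Wif1 held neither word. Dkk3, Dkk4, Sfrp1 and Sfrp4 had no entry. A word is a match of letters and not a measured binding site.

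Dkk3, the divergent Dickkopf gene, changed little. It lay at 0.01, -0.32 and -0.27 in P1 tail replicates 4, 5 and 6 and at 0.59, 0.22 and 0.41 in P5 tail replicates 2, 3 and 4, with every P5 tail array above the P1 tail arrays. In arrays labelled back its 6 values stayed between -0.23 and 0.15, and the ages overlapped. The rise under the tail label was 0.60 (1.52-fold, standard error 0.14, limma adjusted p = 0.0251), and under the back label the difference was 0.13 (limma adjusted p = 0.858). These 2 differences were not shown to be unequal, as their own difference of 0.48 had a limma adjusted p of 0.279. The call rested on several arrays, since the limma adjusted p was 0.0728 without P1 tail replicate 5, 0.0998 without P1 tail replicate 6 and 0.0732 without P5 tail replicate 2, and of its 2 probe sets 1 passed, at 0.68, and the other did not, at 0.53 (limma adjusted p = 0.0884).

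Dkk4, an Lrp-binding inhibitor known from hair placodes, passed in none of the 5 comparisons. Its 12 values spanned only 0.81 on the log2 scale, from -0.36 in P1 tail replicate 4 to 0.45 in P1 back replicate 5. The difference with the narrowest miss was that between sites at P1, at -0.40 (limma adjusted p = 0.219), where the arrays labelled tail all lay below those labelled back. No neighbouring pair in the order of its group means differed beyond the spread.

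Dkkl1, a Dickkopf-like gene best known from testis, was highest in the P1 back arrays, at 0.60, 1.31 and 0.86 in replicates 1, 5 and 6. The P1 tail replicates 4, 5 and 6 scattered at -0.56, 0.74 and -0.28. At P5 it lay at 0.65, -0.10 and 0.03 in tail replicates 2, 3 and 4 and at -0.12, -0.03 and -0.39 in back replicates 1, 2 and 3. The P5 back arrays all lay below the P1 back arrays, and the P1 tail arrays overlapped every other group. The differences were -1.11 between the ages under the back label (limma adjusted p = 0.0605), -0.96 between sites at P1 (0.118) and 1.33 for the interaction (0.134), and none passed. Without P1 tail replicate 5, the P1 site difference was -1.35 (limma adjusted p = 0.00654) and the interaction 1.72 (0.0103), so leaving out this single array changed both calls. With array weights and all arrays kept, the P1 site difference also passed (limma adjusted p = 0.00305), as did the age difference under the back label. The keratinocyte list mean was 0.55 to 0.84 in P1 back, -0.04 to 0.27 in P5 tail and -0.73 to -0.25 in P5 back. In P1 tail replicates 4, 5 and 6 it was -1.16, 0.14 and -0.39. Within each P1 group the array highest in this list was also highest in Dkkl1. Within each P5 group the array highest in the list, replicate 3, was lowest in Dkkl1. The part of keratinocytes in the Dkkl1 values was not tested.

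Among the genes whose products bind Wnt ligands, Sfrp4 and Sfrp1 were those that passed the test between the labelled sites, Sfrp4 at both ages and Sfrp1 at P5. The P5 call on Sfrp4 did not hold under most alternatives. Between sites at P1, 1 of 10 members passed, higher under the tail label, against 3.97% of all genes (2.06% higher and 1.91% lower). At P5, 2 passed, 1 higher and 1 lower, against 6.91% (4.3% higher and 2.61% lower). Groups did not overlap for 5 members at P1 and 4 at P5, beside 30.2% and 20.6% of all genes. Under the tail label the ages did not overlap for 6 members and under the back label for 5, beside 19.4% and 28% of all genes. For the interaction of site and age, which is the tail-minus-back difference at P5 less that at P1, 1 member passed, in the negative direction, against 2.87% of all genes (1.93% positive and 0.94% negative).

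Sfrp4, a secreted Frizzled-related protein also made by fat tissue, turned its direction. It lay at 1.27, 0.90 and 1.31 in P1 tail replicates 4, 5 and 6, and at 0.03, -0.12 and -0.33 in P1 back replicates 1, 5 and 6. At P5 the values were -0.34, -0.53 and -0.15 in tail replicates 2, 3 and 4, and -0.03, 0.52 and 0.31 in back replicates 1, 2 and 3. The P1 tail arrays were above all other arrays, and at P5 the arrays labelled tail were all below those labelled back. Under the tail label Sfrp4 differed by -1.503 between the ages (2.83-fold, standard error 0.16, limma adjusted p = 0.000257), and under the back label the difference was 0.41 (limma adjusted p = 0.272). The site difference was 1.30 at P1 (2.46-fold, standard error 0.16, limma adjusted p = 0.000624) and -0.61 at P5 (limma adjusted p = 0.0433), and the interaction was -1.91 (standard error 0.23, limma adjusted p = 0.00112).

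The P1 site difference, the fall with age under the tail label and the interaction of Sfrp4 passed with any 1 array left out, the interaction at -2.06 to -1.78. Without the 3 arrays with high cartilage genes the interaction was -1.87 with a limma adjusted p of 0.0569 and the P1 site difference 1.29 with 0.0748. The P5 site difference did not pass without P5 tail replicate 2 (0.0793) or 3 (0.110) or P5 back replicate 2 (0.182) or 3 (0.129). Nor did this difference pass with trend and robust variances, array weights, only the arrays compared or the most variable probe set. It passed in 6 of 16 alternatives. The only probe set of Sfrp4 did not pass over all probe sets at P5 (limma adjusted p = 0.0624). In the order of group means, P1 tail, P5 back, P1 back and P5 tail, only the first step of 0.89 passed (limma adjusted p = 0.00668). Adipocyte genes moved with it in part, 6 of 8 falling and none rising with age under the tail label. Their list mean went from 1.15 to 1.75 down to 0.01 to 0.38, and 8 of 8 were higher than under the back label at P1. With age under the back label 5 of 8 rose and none fell. For the interaction 7 of 8 passed, all in the negative direction. At P5 the list was higher under the tail label, at 0.01 to 0.38 against -0.46 to -0.06, where Sfrp4 was lower. Macrophage and myeloid genes, with a list mean over 8 genes, lay at 0.08 to 0.26 in P1 tail, -0.15 to 0.10 in P1 back, -0.49 to -0.24 in P5 tail and 0.02 to 0.08 in P5 back. Of these 8 genes 2 were lower and none higher with age under the tail label, 1 was lower under the tail label at P5, and 1 passed for the interaction, in the negative direction. The part of adipocytes and myeloid cells in the Sfrp4 values was not tested.

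Sfrp1, a secreted Frizzled-related protein that binds Wnt ligands, was raised in 1 group only. Its values were 1.66, 1.27 and 0.57 in P5 tail replicates 2, 3 and 4, while the other 9 arrays lay between -0.17 and 0.18. The P5 tail arrays did not overlap with any other group and were themselves spread over more than 1 log2 unit. Sfrp1 rose with age under the tail label by 1.09 (2.13-fold, standard error 0.20, limma adjusted p = 0.00729) and was higher under the tail than the back label at P5 by 1.30 (2.46-fold, standard error 0.20, limma adjusted p = 0.00181). Under the back label it differed by -0.02 between the ages, with a 95% confidence interval from -0.45 to 0.42. The standard errors rest on 1 spread shared by the 4 groups, so this interval does not measure the spread of the back arrays alone. The SD of Sfrp1 was 0.55 in P5 tail, 0.11 in P1 tail, 0.04 in P5 back and 0.01 in P1 back. The interaction was 1.11 and did not pass (limma adjusted p = 0.0601), so that the age difference is not shown to depend on the label. The interaction passed in 5 of 20 alternatives, among them without P5 tail replicate 4, at 1.41 (0.00127). Of the single probe sets, those at 0.81 and 1.19 passed over all probe sets (limma adjusted p = 0.0357 and 0.0317). Those at 0.91, 1.12 and 1.52 did not.

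**Figure D3:**
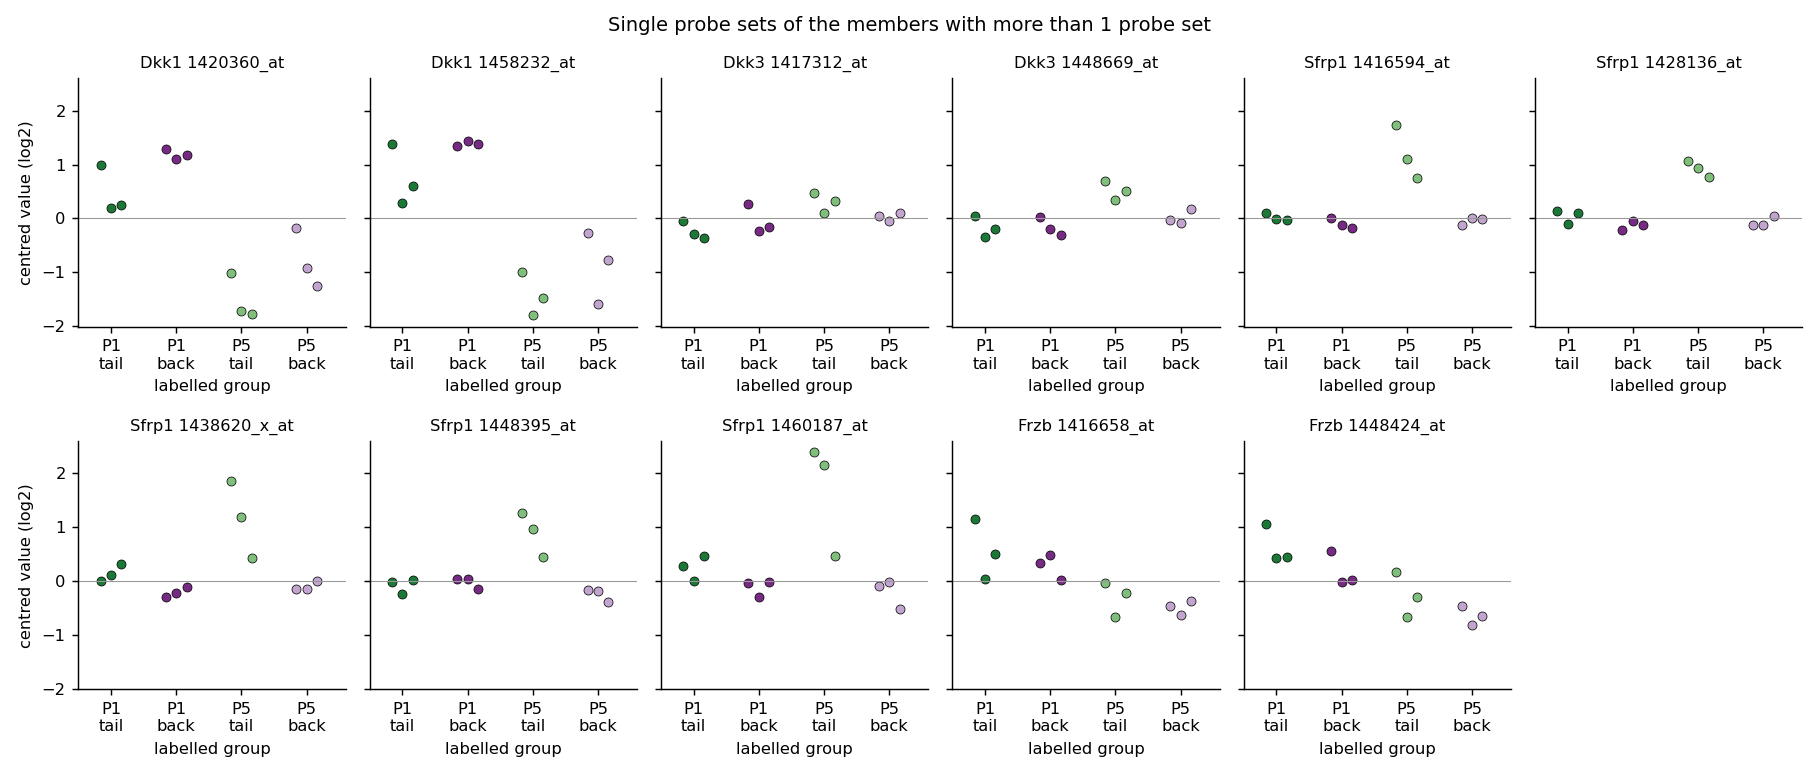
Centred log2 values (vertical axis) of the 11 probe sets of Dkk1, Dkk3, Sfrp1 and Frzb on the 12 arrays, by labelled group, with arrays as points in order of replicate number. All 5 probe sets of Sfrp1 are raised in the P5 tail arrays, and both probe sets of Dkk1 are lower at P5.

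All 5 probe sets of Sfrp1 were higher under the tail label at P5 and past the test over probe sets, by 0.99, 1.14, 1.23, 1.25 and 1.88. Between ages under the tail label 3 of the 5 passed, at 0.88 to 1.17, and the other 2, at 1.01 and 1.42, did not (limma adjusted p = 0.0514 and 0.0572). Both calls on Sfrp1 held with any 1 array left out, including P5 tail replicate 2, without which they were 0.84 (limma adjusted p = 0.0145) and 1.05 (0.00284). With only the 6 tail arrays fitted, the age difference had a limma adjusted p of 0.0738. The list of HF epithelium genes was highest in the same array as Sfrp1, at 0.58, 0.15 and 0.07 in P5 tail replicates 2, 3 and 4 against -0.29 to 0.10 in P1 tail. Of its 14 genes 2 rose and none fell with age under the tail label, while under the back label, where Sfrp1 did not move, 10 rose and 2 fell. Of 13 keratinocyte genes 4 rose and none fell under the tail label, none rose and 7 fell under the back label, and 5 were higher and 1 lower under the tail label at P5. The smooth muscle and pericyte list was also highest in P5 tail replicate 2, at 0.34, the array with the wide spread. The part of these cells in the Sfrp1 values was not tested.

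Sfrp2, which is expressed in dermal fibroblasts and the dermal papilla, was higher under the tail label at both ages without passing the test. Its values were 0.49, 0.04 and 0.63 in P1 tail replicates 4, 5 and 6 and 0.52, 0.02 and 0.77 in P5 tail replicates 2, 3 and 4. The 6 arrays labelled back lay between -0.26 and -0.02, below every array labelled tail. The site difference was 0.63 at P1 (limma adjusted p = 0.0856) and 0.53 at P5 (0.113), and the differences between ages were 0.05 and 0.15. Leaving out the array with the lowest tail value changed the call at each age. The P1 difference was 0.80 (limma adjusted p = 0.0256) without P1 tail replicate 5 and the P5 difference 0.74 (0.0203) without P5 tail replicate 3. With array weights and all arrays kept, the P1 difference passed too (limma adjusted p = 0.000895), where 3650 of all genes passed.

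Frzb, a Wnt-binding protein first known from cartilage, was lower at P5 under both labels. It lay at 1.11, 0.23 and 0.47 in P1 tail replicates 4, 5 and 6 and at 0.46, 0.24 and 0.02 in P1 back replicates 1, 5 and 6. At P5 it lay at 0.07, -0.66 and -0.25 in tail replicates 2, 3 and 4 and at -0.46, -0.72 and -0.51 in back replicates 1, 2 and 3. The ages did not overlap under either label. Frzb fell by 0.89 under the tail label (1.85-fold, standard error 0.22, limma adjusted p = 0.0377), and the difference under the back label was -0.80 (limma adjusted p = 0.0675). The tail call did not hold without P1 tail replicate 4 (0.141) or 6 (0.0784) or P5 tail replicate 3 (0.0762) or 4 (0.0583). No probe set of Frzb passed alone under the tail label (limma adjusted p = 0.0753 and 0.0563). The list mean of 15 cartilage genes was 2.05, 0.01 and 1.64 in P1 back replicates 1, 5 and 6 and -0.04 to 0.86 in P5 back, with a median difference of -0.72 between the ages and no gene past the test. It was -0.23 to -0.15 in P1 tail and -0.36 to -0.01 in P5 tail, where 1 gene rose. The part of cartilage in the Frzb values was not tested.

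Wif1, which binds Wnt ligands through its WIF domain, was lower at P5 under both labels without passing. Its values were 0.66, -0.22 and 0.09 in P1 tail replicates 4, 5 and 6 and 0.58, 0.48 and 0.31 in P1 back replicates 1, 5 and 6. At P5 they were -0.07, -1.03 and -1.33 in tail replicates 2, 3 and 4 and 0.07, -0.42 and -0.17 in back replicates 1, 2 and 3. The ages overlapped under the tail label and not under the back label. The difference was -0.99 under the tail label (limma adjusted p = 0.0682) and -0.63 under the back label (0.359). Without P5 tail replicate 2, the array with the wide spread, the tail difference was -1.36 (limma adjusted p = 0.0068) and the P5 site difference -1.003 (0.0211), and without P1 tail replicate 5 the tail difference was -1.18 (0.0477).

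Under the tail label Dkk1, Sfrp4 and Frzb fell with age, and Dkk2, Sfrp1 and Dkk3 rose. Wif1, at -0.99, did not pass, and neither did Sfrp2, Dkk4 and Dkkl1. Dermal papilla genes were in part lower at P5 under that label. Their list mean over 12 genes was 0.04 to 0.32 at P1 and -0.47 to -0.08 at P5, with 4 genes lower and 1 higher past the test. Under the back label Dkk1 fell and Dkk2 rose as well. The list mean there was -0.02 to 0.17 at P1 and -0.17 to -0.02 at P5, with 1 gene lower and 1 higher. Fibroblast genes differed less, with a list mean over 10 genes between -0.18 and 0.20 on all arrays, no change with age under the tail label and 1 of 10 lower under the back label. Whether these cell types had a part in the members' values was not tested.

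**Figure D4:**
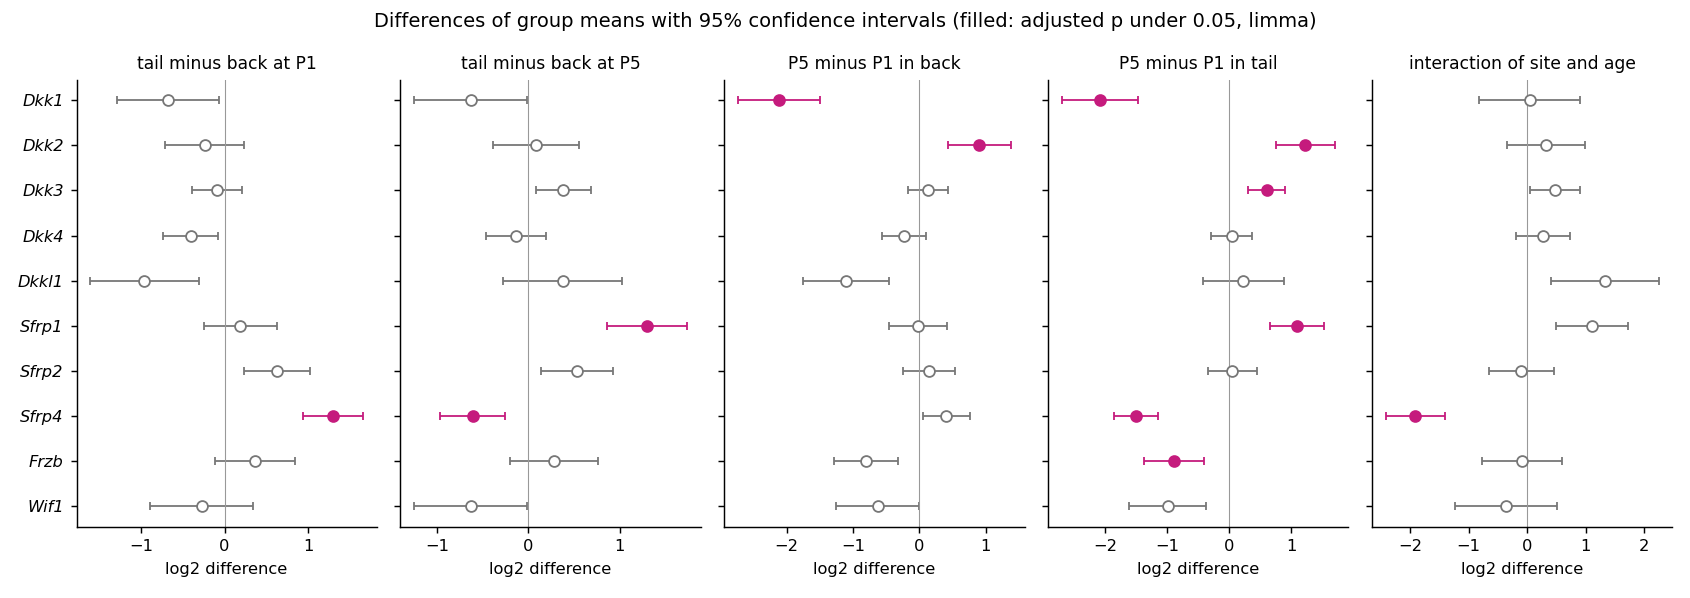
Log2 differences (horizontal axis) of the 10 genes in the 5 comparisons, with 95% confidence intervals from limma. Filled points passed at an adjusted p under 0.05. Dkk1 and Dkk2 lie on opposite sides of 0 in both age comparisons, and Sfrp4 changes side between the site comparisons at P1 and P5.

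The other genes of the pathway were counted by role, and their calls between the ages are to be read beside 5.3% of all genes under the tail label and 4.25% under the back label. Of 19 Wnt ligand genes none passed under the tail label and 1 was lower under the back label, Wnt16 at -0.86 (limma adjusted p = 0.00617). Of 17 receptor and co-receptor genes, 2 rose and 1 fell under the tail label, and 1 rose and 1 fell under the back label. These were Fzd7 at 0.69, Fzd6 at 0.41 and Fzd4 at -1.10 under the tail label, and Fzd1 at 0.82 and Lrp4 at -1.11 under the back label. Lrp5, Lrp6 and Kremen1, through which Dkk1 acts, did not pass in any of the 5 comparisons. The list of other inhibitors held 14 genes taken to act outside the cell or at its surface, and their roles were not tested. Of these 1 rose and 1 fell under the tail label and 1 fell under the back label. Sfrp5, an Sfrp gene in this list and not among the members, passed in none of the 5 comparisons. Sostdc1, an inhibitor that binds Lrp co-receptors, was the gene that rose under the tail label, at 1.11, and the gene that fell under the back label, at -0.68, with an interaction of 1.79 (limma adjusted p = 0.000755), and Gpc3 was lower under the tail label at -0.58.

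Of 15 genes taken as targets of β-catenin, whose roles were not tested, none passed with age under the tail label. Under the back label 1 rose, Lef1 at 0.56 (limma adjusted p = 0.0434), and 1 fell, Twist2 at -0.87 (0.0186). Twist2 is also the fibroblast gene counted above as lower under the back label. Axin2, a general readout of the pathway, differed by 0.21 under the tail label and -0.22 under the back label with age, and neither passed, while it was higher under the tail label at P5 by 0.48 (limma adjusted p = 0.0399). Of 9 genes that enhance Wnt signalling or secretion, Lgr6 rose by 0.89 under the tail label and fell by 0.60 under the back label.

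Between the labelled sites, 3.97% of all genes passed at P1 and 6.91% at P5. Of the 9 enhancers 3 were higher and none lower under the tail label at each age. These were Rspo1 at 1.48, Lgr5 at 0.84 and Wls at 0.66 at P1, and Lgr6 at 1.86, Rspo1 at 1.30 and Wls at 0.58 at P5. Of the 14 other inhibitors, Apcdd1 at 0.87 and Draxin at 0.50 were higher and Sostdc1 at -0.72 lower at P1, while at P5 Sostdc1 at 1.07 and Apcdd1 at 0.61 were higher and Serpinf1 at -1.04 and Igfbp4 at -0.73 lower. Sostdc1 thus changed side between the ages in the direction opposite to Sfrp4. Of the receptors, Fzd4 at 0.97 and Fzd1 at 0.65 were higher under the tail label at P1, and Ror1 at 0.82 and Fzd7 at 0.65 at P5. Of the 19 ligands, Wnt3 was lower under the tail label at P1, at -1.17, and at P5 Wnt5b at 0.64 was higher and Wnt10b at -0.53 lower. Of the 15 genes taken as β-catenin targets 3 were higher and none lower at P1, namely Apcdd1, Lgr5 and Prdm1 at 0.665. At P5 4 were higher, namely Twist1 at 0.79, Twist2 at 0.69, Apcdd1 and Axin2, and 1 was lower, Lef1 at -0.53 (limma adjusted p = 0.0428). The lists overlap, as Apcdd1 is also counted among the inhibitors, Lgr5 among the enhancers and Twist2 among the fibroblast genes. The interaction of Fzd4 was -1.43 (limma adjusted p = 0.00471).

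The genes whose pattern over the 12 arrays was most like that of a member were found by the root mean square difference of centred log2 values, for the 8 members whose values spanned at least 1 log2 unit. Nearest to Dkk1 were Sox11 (0.479), Dlk1 (0.541) and Kcne4 (0.568), a wider gap than for any other member. The measure is not scaled to a gene's range, so gaps of different members cannot be compared. Dkk1 spanned 3.07 log2 units, and no other member more than 1.99. Nearest to Frzb were Lxn (0.166), Plod2 (0.173) and Sox18 (0.210), and nearest to Wif1 were Serpinb1a (0.200), C1s1 (0.203) and Sox2 (0.230), a gene of the dermal papilla. Nearest to Sfrp4 were A530020G20Rik (0.219), Btla (0.234) and Dram1 (0.270), and nearest to Sfrp1 were Alad (0.192), Pxmp4 (0.197) and Emc9 (0.198). Nearest to Dkk2 were Emid1 (0.338), Phyh (0.357) and Entpd3 (0.359), nearest to Sfrp2 were Serpinh1 (0.188), Ypel4 (0.193) and Reck (0.198), and nearest to Dkkl1 were Clec2g (0.205), Mboat2 (0.206) and Cyp3a13 (0.209). With age Sox11 fell by 1.69 under the tail label and by 1.20 under the back label (limma adjusted p = 0.000297 and 0.00273).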

How the data were processed

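Dermis RNA of 12 samples was hybridised to 1-colour Affymetrix arrays. The authors used GeneSpring for RMA normalisation, and deposited the resulting log2 values of 45101 probe sets. No source names the log base, which was taken from RMA. Each probe set is also centred, with a median over the 12 arrays of 0 within 1e-06. The methods' filter on weakly expressed genes cannot be applied to centred values, so none was used.

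Groups were taken from the sample titles. After 64 control probe sets were left out, 34945 of 45037 probe sets had exactly 1 gene symbol, 932 had several and 9160 had none. Of the 34945, 34741 were matched by gene identifier to RefSeq GRCm38.p6, with 0 changed symbols. Their values were averaged into 18193 genes. Linear models of 4 groups over all 12 arrays were made in limma 3.58.1 under R 4.3.3 with moderated variances and 8 residual degrees of freedom. Benjamini-Hochberg adjustment ran over all genes, or over all probe sets for single probe sets. Precision is limited by having 3 arrays a group.

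The members and lists were chosen with earlier results of these data known. Named pathway genes are called genes with the largest differences, at most 3 per list and comparison. Lrp5, Lrp6, Kremen1, Axin2, Sfrp5 and, between sites at P5, Apcdd1 and Lef1 were named after their values were seen. Likeness genes are the 3 nearest to each member that spans at least 1 log2 unit. Alternatives were trend and robust variances, array weights, array centring, only the arrays compared, the replicate number as a block, other handling of probe sets, leaving out 3 arrays high in cartilage genes, the methods' t-test and leaving out each array. The procedure was tested on simulated data. The P2 and P50 fibroblast arrays of the study were not analysed here.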

Additional observations from a re-analysis of the deposited data

Results flagged for a closer look

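The effect of the labelled site on Sfrp4 differed between the ages by a test of the difference itself. The interaction was -1.91 on the log2 scale (standard error 0.23, limma adjusted p = 0.00112), from a tail-minus-back difference of 1.30 at P1 to one of -0.61 at P5. The P5 difference alone passed in 6 of 16 alternatives. All 3 arrays labelled P1 tail lay above the 3 labelled P1 back, and all 3 labelled P5 tail lay below the 3 labelled P5 back. No other member passed this test, Sfrp1 being nearest at 1.11 (limma adjusted p = 0.0601).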

How the results depend on the processing

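Counts of the 10 members past the threshold moved as follows from 1 (sites at P1), 2 (sites at P5), 2 (ages, back), 6 (ages, tail) and 1 (interaction). Array weights gave 4, 1, 6, 4 and 2 in that order. Over all 18193 genes the calls moved too, from 722, 1257, 773, 964 and 522 to 3650, 662, 2136, 433 and 767. Trend and robust variances gave 1 for sites at P5 and 3 for ages in back. With only the arrays compared, the counts were 1 for sites at P5, 5 for ages in back and 3 for ages in tail. The most variable probe set gave 1 for sites at P5, and leaving out probe sets of shared sequence, which removes Wif1, gave 2 for the interaction. Without the 3 arrays with high cartilage genes the counts were 0, 1, 0, 4 and 0, with P1 back then a single array assumed to vary like the others. After Benjamini-Hochberg adjustment the methods' t-test left 0 members in each of the 4 comparisons it can make. There limma called 1, 2, 2 and 6. Of all 18193 genes the t-test left only 6, 24, 10 and 0, so 0 of 10 members says little about the members. Its unadjusted counts under 0.05 were 3, 3, 5 and 5 members, beside 3653, 2286, 3603 and 1845 of all genes. For the other alternatives the count over all genes was not taken. Leaving out 1 array at a time gave 1 to 3 for sites at P1 (3 without P1 tail replicate 5), 1 to 2 for sites at P5, 1 to 2 for ages in back, 4 to 6 for ages in tail and 1 to 2 for the interaction (2 without P1 tail replicate 5 or P5 tail replicate 4).

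Same-numbered arrays of the same age correlated in their deviations from group means at 0.26, -0.01, 0.17 and -0.02, so the numbers were not taken as pairs. With the replicate number within age as a block, fixed or random, 1 and 2 members were called between sites, as without it, and 2 for the interaction, where Sfrp1 joined Sfrp4 (limma adjusted p = 0.0386 and 0.0349). The random block left 2 and 6 calls with age. The fixed block had 8 blocks for 12 arrays and left 2 residual degrees of freedom. Only arrays whose number occurs under both labels at an age enter its site differences, so it is a limited check.

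No called difference changed sign under any alternative. Differences that had not passed did so at small values. Without the 3 arrays with high cartilage genes the Dkk1 interaction was -0.059, the P1 site difference 0.013 for Dkk2 and 0.023 for Dkk3, and the age difference of Sfrp1 in back 0.015. With array weights the age difference of Sfrp2 in tail was -0.13, and with the fixed replicate block the interactions of Frzb and Wif1 were 0.099 and 0.21. With 1 array left out, the interaction ranged from -0.19 to 0.34 for Dkk1, -0.27 to 0.11 for Sfrp2 and -0.27 to 0.17 for Frzb. The site difference ranged from -0.072 to 0.32 for Dkk2 at P5 and -0.20 to 0.030 for Dkk3 at P1. The age difference in tail ranged from -0.059 to 0.15 for Dkk4, -0.039 to 0.61 for Dkkl1 and -0.12 to 0.26 for Sfrp2, and that in back from -0.036 to 0.00034 for Sfrp1. The causes were not tested.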
